A study of Mus musculus with 3 samples.

Results

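The cells described here are 73 of the 9383 barcodes kept from a single-cell RNA data set of the mouse aorta-gonad-mesonephros region (AGM), the tissue around the dorsal aorta in which the first haematopoietic stem cells arise. They were chosen by their own counts of unique molecular identifiers (UMIs): at least 10 UMIs of the contractile genes Acta2, Tagln and Cnn1 together, at least 2 UMIs of the collagen genes Col1a1, Col1a2 and Col3a1 together, no UMI of the skeletal muscle factors Myog, Myod1, Myf5 and Myf6, none of the endothelial cadherin Cdh5, none of the mesothelial gene Upk3b, and at most 1 UMI of Tbx18 and Ntrk2 together. They made up 0.778% of the kept barcodes (exact binomial 95% interval 0.610 to 0.977%). The label given to them is perivascular smooth muscle. The marker genes outside the rule, Myl9 and Rgs5, were found in 73 and 28 of the 73 cells, but the tissue was dissociated, so where a cell lay relative to a vessel was not measured, and they are called smooth muscle cells here.

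Embryos at stage E10.5 with 28 to 32 somite pairs were used, and dissected AGM regions were pooled before dissociation. Strain and genotype are not stated in the labels, and no treatment is named. The 3 sorted populations were AGM niche cells (live, Ter119-), endothelial cells (Ter119-, CD31+, VCad+, CD41-, cKit+) and T1-preHSCs, precursors of haematopoietic stem cells (Ter119-, CD31+, VCad+, CD41low, cKit+). Each population was loaded on 2 lanes of a droplet chip (10x Genomics, v2 chemistry). The study asked how AGM cells signal to one another while stem cells emerge. The deposited matrix pools all populations, and its barcodes carry 8 suffixes, called libraries 1 to 8 here. The labels do not say which suffix belongs to which population, so the matrix was treated as 1 sample, with no test, p-value or standard deviation. All intervals given are exact 95% intervals (Poisson for summed UMIs, binomial for shares) and cover counting error only. The limit beside a count of 0 is not such an interval: it is 3 counts of the total.

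Smooth muscle cells form the contractile coat of blood vessels and of hollow organs. Their force comes from actin and myosin filaments with associated tropomyosin, calponin and transgelin, and much of this gene set is switched on by serum response factor (SRF), which binds the CArG box, with myocardin or related cofactors. In the embryo, mural cells gather around the aorta from nearby mesoderm under PDGF-B, TGF-beta and Notch signals, and mesenchyme below the aorta is known as a source of signals for blood stem cell formation.

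Libraries 1 to 6 gave 20, 17, 10, 14, 7 and 5 smooth muscle cells, and libraries 7 and 8 gave none of 102 and 162 kept barcodes, which allows shares of up to 2.94% and 1.85%. Shares of kept barcodes were 1.09%, 1.03%, 0.629% and 0.813% in libraries 1 to 4, against 0.587% and 0.439% in libraries 5 and 6, with intervals that overlapped. A second denominator gave another order. Among the 2144 barcodes that met every part of the rule other than the contractile one, the smooth muscle cells made up 3.40% (2.68 to 4.26%). In libraries 5 and 6 they were 7 of 15 (46.7%, 21.3 to 73.4%) and 5 of 18 (27.8%, 9.69 to 53.5%) of these collagen cells, against 3.91%, 3.15%, 2.03% and 2.47% in libraries 1 to 4. Libraries 5 and 6 therefore held very few collagen cells, and a large part of those few were smooth muscle cells.

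The smooth muscle cells held 607021 UMIs in all, with a median of 7031 per cell and a range of 2688 to 32133. Their counts of Acta2, Tagln and Cnn1 together ranged from 10 to 251 UMIs per cell with a median of 25, and their collagen counts from 2 to 33 with a median of 6. A median of 2.78% of their UMIs were mitochondrial. Starting from 193 kept barcodes with enough contractile UMIs, the collagen threshold left 101, the skeletal muscle factors 88, Cdh5 again 88, Upk3b 87 and the limit on Tbx18 and Ntrk2 73. Just inside the contractile threshold, 11 cells with 10 to 12 UMIs had an Acta2 level of 1205 CPM (the share of all UMIs of the set, on the counts-per-million scale), and just outside it 7 cells with 7 to 9 UMIs had 355 CPM. Tpm1, a tropomyosin outside the rule, was at 1516 CPM inside and 917 CPM outside, and Myl9, the regulatory myosin light chain of smooth muscle, at 420 and 413 CPM.

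These cells were set beside 3 other sets. The nearest set is 2019 collagen cells that met every other part of the rule with at most 2 contractile UMIs, called contractile-low collagen cells here (median 8017 UMIs, 2.60% mitochondrial). The others are all 9310 other kept barcodes (median 7600.5 UMIs), and 14 contractile cells set apart only by 2 or more UMIs of Tbx18 and Ntrk2 (median 8766 UMIs). UMIs were summed over each set, and log2 ratios were taken of CPM plus 10. Genes at 10 CPM or more in either set entered, the 14 genes of the rule left out. To be called, a gene needed an absolute log2 ratio of 1 or more, 50 CPM or more in the set where it was higher, and the same direction in each library with at least 10 cells of both sets, which were libraries 1 to 4. Because the same cells' counts chose them, every one of these comparisons is a description. A gene enters through its higher set, so counts within gene lists describe the genes that entered and support nothing.

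Against contractile-low collagen cells, 8041 genes entered, 154 (1.92%) were called higher and 21 (0.261%) lower in the smooth muscle cells, and the median log2 ratio over all genes was 0.02. Without library 1 the number called lower was 38. Against all other kept barcodes, 158 of 8251 genes (1.91%) were called higher and 43 (0.521%) lower. The gene groups below are read beside these shares.

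Contractile genes outside the rule were higher together with those inside it. Of 28 genes in that list, 3 belong to the rule, 24 of the others entered, 18 were called higher and none lower, with a median log2 ratio of 1.84. The summed level of the whole list, rule genes included, was 22148 CPM in smooth muscle cells and 3230 CPM in contractile-low collagen cells. Part of that gap was fixed by the rule, which set Acta2, Tagln and Cnn1 high in the first set and low in the second. The genes of the rule are given only as values. Acta2, smooth muscle alpha-actin, was at 2848, 4522, 5272 and 6572 CPM in the smooth muscle cells of libraries 1 to 4, against 4.39 to 7.16 CPM in the contractile-low collagen cells of those libraries. Tagln, the actin-binding protein transgelin, was at 1315 CPM (1225 to 1409) against 5.56 CPM, and Cnn1, calponin, at 316 CPM (273 to 364) against 0.290 CPM, where 5 UMIs were counted.

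Myl9 was not used by the rule. It reached 1073, 1104, 1532 and 1807 CPM in smooth muscle cells of libraries 1 to 4 and 2388 and 1230 CPM in libraries 5 and 6, against 41.4 to 62.0 CPM in contractile-low collagen cells of libraries 1 to 4, a log2 ratio of 4.56. Every smooth muscle cell held at least 1 Myl9 UMI. Tpm1 was at 2515, 2220, 3036 and 2780 CPM in libraries 1 to 4, against 299.5 to 355 CPM (log2 ratio 2.96). Tpm2, the beta-tropomyosin, was at 700.1 CPM against 64.2 CPM (3.26), and the LIM protein gene Csrp1 at 649 CPM against 63.9 CPM (3.16). Vim, the intermediate filament gene of mesenchyme, was at 1715 CPM against 241 CPM (2.78), and Des, the intermediate filament gene of muscle, at 114 CPM against 28.4 CPM (1.69). For each of these genes the smooth muscle cells of libraries 1 to 4 lay above the contractile-low collagen cells of the same libraries with no overlap.

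**Figure D1:**
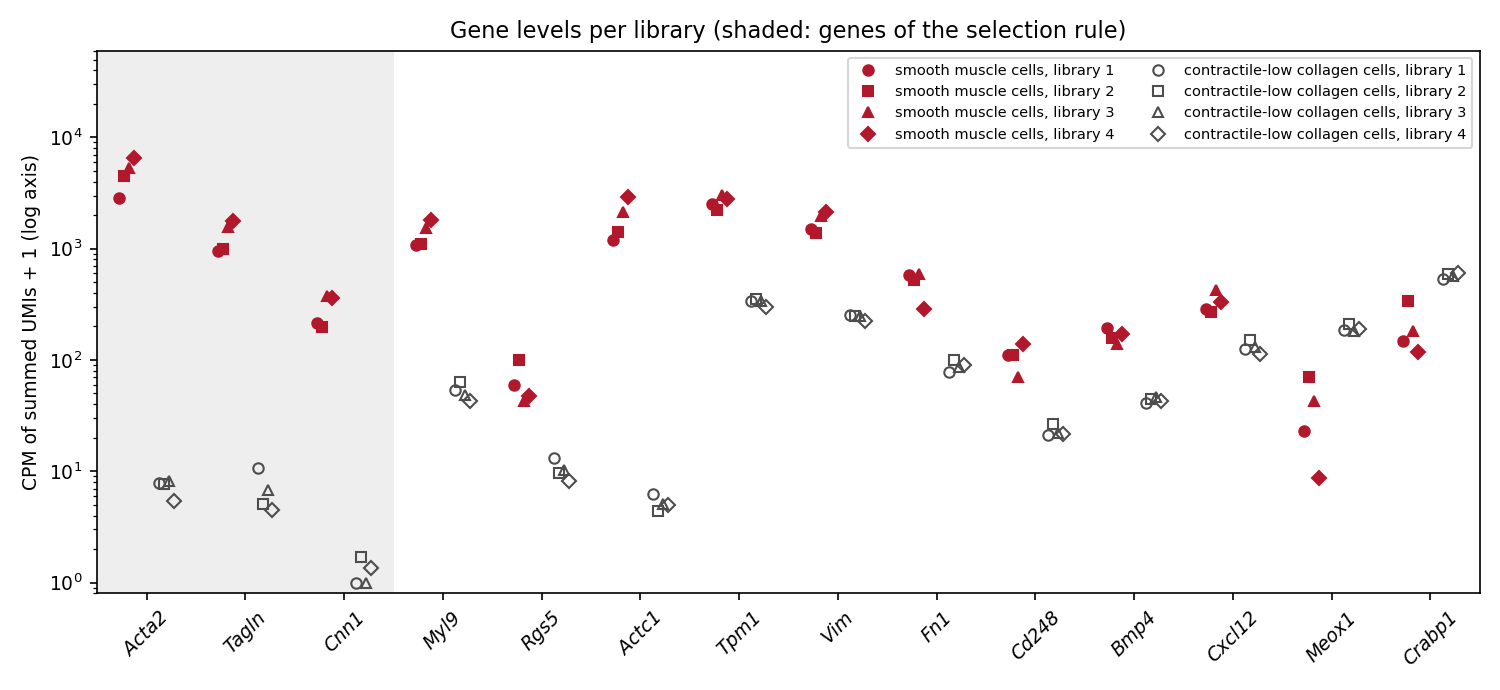
CPM of summed UMIs plus 1 (log axis) for 14 genes in libraries 1 to 4, with smooth muscle cells as filled red symbols on the left and contractile-low collagen cells as open grey symbols on the right; the shaded genes belong to the selection rule. Myl9 spans 1073 to 1807 CPM in the smooth muscle cells and 41.4 to 62.0 CPM in the other set, Cxcl12 spans 267 to 428 CPM against 113 to 150 CPM, and Meox1 and Crabp1 run the other way.

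Other actin genes were on as well. Actc1, the cardiac alpha-actin that early striated and smooth muscle also uses, was at 1198, 1424, 2139 and 2888 CPM in smooth muscle cells of libraries 1 to 4, against 3.42 to 5.23 CPM in contractile-low collagen cells, and had the highest log2 ratio of all genes outside the rule (6.95). It was found in 55 of the 73 cells, with a median of 6 UMIs per cell and at most 98. Actg2, the gamma-actin of visceral smooth muscle, was at 222 CPM (186 to 263) against 0.290 CPM (log2 ratio 4.50), from 24 cells, of which 5 gave 65.2% of its UMIs. Acta1, the skeletal alpha-actin, was at 189 CPM against 1.62 CPM, but 60 of its 115 UMIs came from 1 cell. The 13 contractile barcodes that the rule left out for skeletal muscle factors had 3065 CPM of Actc1 and 3237 CPM of the fast myosin light chain Mylpf, while the smooth muscle cells held 38 Mylpf UMIs, 36 of them in 1 cell.

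Late markers were sparse. Myh11, the smooth muscle myosin heavy chain, had 27 UMIs in 16 cells (44.5 CPM, 29.3 to 64.7), against 1 UMI in the contractile-low collagen cells, and stayed under the 50 CPM that a call needs. Lmod1, leiomodin, had 28 UMIs in 18 cells (46.1 CPM against 1.16 CPM), Myocd, myocardin, had 2 UMIs, and Synpo2 had none, which allows up to 4.94 CPM. Mylk, the myosin light chain kinase, was called higher at 64.2 CPM against 6.49 CPM (log2 ratio 2.17), while Smtn, smoothelin, was at 16.5 against 6.95 CPM and was not called.

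The upstream sequence of the leading actin and myosin genes is shown because CArG boxes are the known docking sites of SRF in such genes. The stretches are the 250 bases before the start site in the RefSeq-based promoter table (mm10), 5′ to 3′ on the strand of the gene, with matches to the CArG box in capitals. A match here is CC, 6 bases of which at most 1 is G or C, then GG; the pattern reads the same on both strands. Acta2 lies at chr19:34255374-34255623 (minus strand), Myl9 at chr2:156775214-156775463 (plus strand) and Actc1 at chr2:114052876-114053125 (minus strand).
Acta2: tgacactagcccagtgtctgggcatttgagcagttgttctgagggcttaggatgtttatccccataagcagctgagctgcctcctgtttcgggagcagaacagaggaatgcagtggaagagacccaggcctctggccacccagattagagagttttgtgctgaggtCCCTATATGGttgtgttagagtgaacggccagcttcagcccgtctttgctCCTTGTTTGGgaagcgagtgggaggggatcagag
Myl9: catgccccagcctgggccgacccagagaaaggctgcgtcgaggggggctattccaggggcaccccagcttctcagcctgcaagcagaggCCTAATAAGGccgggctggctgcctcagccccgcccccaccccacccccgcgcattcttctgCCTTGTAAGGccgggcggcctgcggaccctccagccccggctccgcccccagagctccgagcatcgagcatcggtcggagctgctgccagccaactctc
Actc1: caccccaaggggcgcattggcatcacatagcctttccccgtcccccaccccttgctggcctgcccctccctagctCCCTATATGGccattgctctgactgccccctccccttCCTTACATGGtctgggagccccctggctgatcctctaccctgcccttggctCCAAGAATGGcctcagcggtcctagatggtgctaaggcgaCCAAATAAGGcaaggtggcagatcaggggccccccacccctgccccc
In these windows the CArG matches begin 84 and 34 bases before the start for Acta2, 161 and 99 bases before it for Myl9, and 175, 138, 87 and 47 bases before it for Actc1. Among genes called higher in smooth muscle cells, 118 of 154 had an entry in the table and 26 of these (22.0%) held at least 1 match, against 559 of 6258 genes that entered the comparison (8.93%) and 2643 of 27025 genes in the whole table (9.78%). At least 2 matches were held by 4.24% of the genes called higher and by 0.847% of those that entered. Among genes called lower, 2 of the 14 with an entry (14.3%) held a match. Of the 24 contractile genes with an entry, 5 held a match, namely Acta2, Myl9, Cnn2, Vcl and Myl6. The windows of Cnn1 and Rgs5 held no match, which says only that these letters are not there. No window was searched for Tagln, Myh11, Actg2 and Csrp2, the contractile genes without an entry. The sequence matches are a description and were not tested as binding sites.

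Apart from the actin, myosin and tropomyosin genes above, the 15 genes with the highest log2 ratios included cytoskeletal, membrane and growth factor genes. Hspb1, a small heat shock protein of muscle, was at 175 CPM against 3.42 CPM in contractile-low collagen cells (log2 ratio 3.78). Car3, a carbonic anhydrase abundant in muscle, was at 128 CPM against 3.13 CPM (3.40). Annexins were also higher, with Anxa2 at 311 CPM against 21.9 CPM (3.33) and Anxa3 at 188 CPM against 11.9 CPM (3.17). Glipr2 was at 213 CPM against 19.8 CPM (2.90) and Nexn, an actin-binding protein, at 84.0 CPM against 3.71 CPM (2.78). Hbegf, an EGF-family ligand, was at 135 CPM against 10.1 CPM (2.85), with 51.2% of its UMIs in 5 cells.

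**Figure D2:**
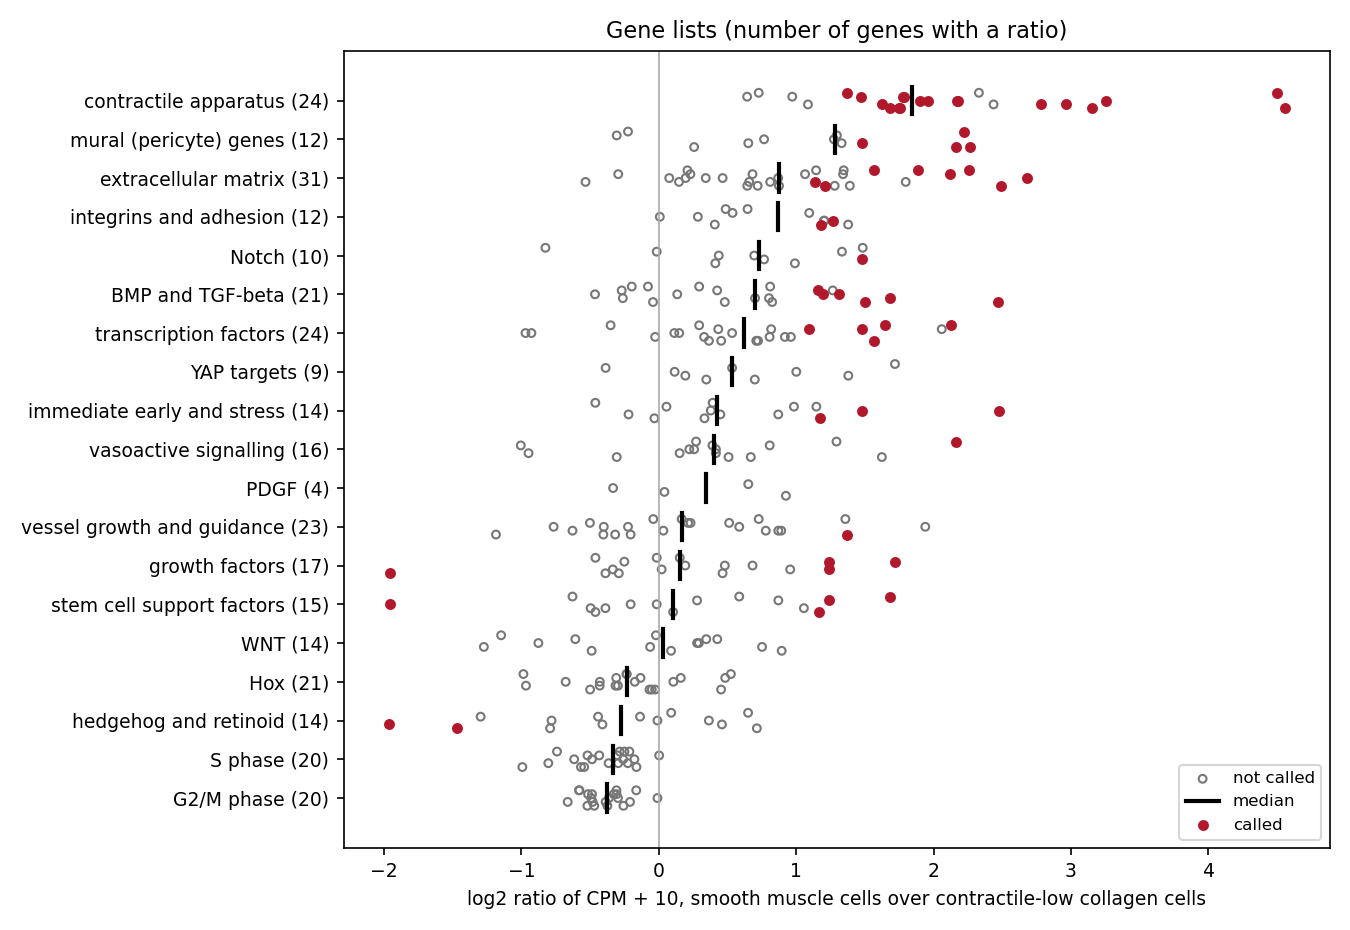
Log2 ratios of CPM plus 10, smooth muscle cells over contractile-low collagen cells, for the genes of 19 lists that entered the comparison (numbers in brackets); red points were called, open grey points were not, and black bars are list medians. The contractile list has its median at 1.84 and the G2/M list at -0.38.

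Mural cell genes were partly raised. Of 18 mural genes, 12 entered, 4 were called higher and none lower, with a median log2 ratio of 1.29. Rgs5, a regulator of G protein signalling that marks pericytes, was at 59.2, 98.8, 41.4 and 46.3 CPM in smooth muscle cells of libraries 1 to 4 and at 97.1 and 151 CPM in libraries 5 and 6, against 7.14 to 12.1 CPM in contractile-low collagen cells of libraries 1 to 4 (log2 ratio 2.16). It was found in 28 of the 73 cells. Cd248, endosialin, was at 143 CPM against 21.8 CPM (2.27) and Ndufa4l2 at 72.5 CPM against 7.70 CPM (2.22). Heyl, a Notch target of mural cells, was at 51.1 CPM against 11.9 CPM (1.48). Under 3 of 18 alternative settings, among them without library 3, Heyl was not called. Pdgfrb, the receptor that recruits mural cells, was at 72.5 CPM against 42.5 CPM (0.65), was not called, and its library values overlapped. Notch3, the Notch receptor of arterial smooth muscle, was at 34.6 CPM against 16.2 CPM and was not called. Of the pericyte marker list, Higd1b had no UMI, Kcnj8 had 2 and Abcc9 had 3. Cspg4, also of that list, had 11 UMIs and was not called. It was found in 11 of the 73 cells (15.1%), against 1.24% of contractile-low collagen cells.

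Cell shares give the same genes at equal depth. With each barcode thinned to 3000 UMIs, which left out 1 smooth muscle cell and 41 contractile-low collagen cells, Myl9 was found in 91.7% of smooth muscle cells, against 10.8% of contractile-low collagen cells, 3.67% of 1497 endothelial barcodes and none of 48 macrophage barcodes. Unthinned, these Myl9 shares were 100%, 21.1%, 8.40% and 0%. Rgs5 was found in 19.4% (11.1 to 30.5%) of smooth muscle cells and 2.33% (1.71 to 3.09%) of contractile-low collagen cells after thinning, and in 38.4% and 5.55% before it. Actc1 was found in 66.7% and 1.16%, and Actg2 in 26.4% and 0.101%. The endothelial and macrophage barcodes, at medians of 8775 and 10894.5 UMIs, serve as cells that should lack the smooth muscle genes. Acta2, a rule gene, was found in 2.27% of the endothelial ones after thinning.

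Some genes of the BMP and TGF-beta families were raised. Of 41 genes listed, 21 entered, 6 were called higher and none lower, with a median log2 ratio of 0.70. Bmp4, a ligand known from the mesenchyme below the aorta, was at 192, 157, 138 and 170 CPM in smooth muscle cells of libraries 1 to 4, against 40.5 to 45.7 CPM in contractile-low collagen cells (log2 ratio 1.69). Bmp2 was at 51.1 CPM (34.7 to 72.5) from 17 cells, against 1.04 CPM (2.47). It was not called under 5 of 18 alternative settings, among them without library 2. Tgfb2 was at 89.0 CPM against 34.2 CPM (1.16) and Id3, a target of BMP signalling, at 1259 CPM against 544 CPM (1.19). Id1 and Id2, of the same family as Id3, had 186 and 218 UMIs and were not called, and Smad7 had no UMI. Ltbp1, which holds latent TGF-beta in the matrix, was at 67.5 CPM against 17.4 CPM (1.50), and Fstl1, a secreted BMP antagonist, at 269 CPM against 102 CPM (1.31).

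Of 31 secreted factors linked to blood stem cell support, 15 entered, 3 were called higher and 1 lower, and the median log2 ratio was 0.10. That median was -0.24 when libraries had equal weight. Cxcl12, the chemokine that retains blood stem cells, was at 289, 267, 428 and 332 CPM in smooth muscle cells of libraries 1 to 4, against 113 to 150 CPM in contractile-low collagen cells (log2 ratio 1.17) and 0.417 CPM in endothelial barcodes. Igf2, a fetal growth factor, was at 1603 CPM against 674 CPM (1.24), and H19, the noncoding RNA imprinted with it, at 2690 CPM against 1132 CPM (1.24). Igf1 ran the other way, at 8.24 CPM (2.67 to 19.2) against 60.8 CPM (-1.96). Kitl, the stem cell factor gene, was at 47.8 CPM against 17.8 CPM, below the level of a call, and its library values overlapped. Dlk1, a noncanonical Notch ligand, was at 1016 CPM against 1027 CPM.

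Extracellular matrix genes outside the rule were raised in part. Of 50 matrix genes, 3 belong to the rule, 31 of the others entered, 8 were called higher and none lower, with a median log2 ratio of 0.88. Postn, periostin, was at 133, 169, 110 and 108 CPM in libraries 1 to 4, against 11.9 to 16.0 CPM (log2 ratio 2.68). Fn1, fibronectin, was at 542 CPM against 88.3 CPM (2.49), Sparc at 1438 CPM against 293 CPM (2.26), the proteoglycan gene Bgn at 119 CPM against 19.6 CPM (2.12) and the basement membrane collagen gene Col4a1 at 102 CPM against 27.8 CPM (1.57). Loxl1, a crosslinker of elastin, was at 51.1 CPM against 6.54 CPM (1.88), while elastin itself, Eln, had 2 UMIs. Of the 3 collagen genes in the rule, Col1a1 was at 303 CPM against 56.3 CPM and Col3a1 at 562 CPM against 233 CPM, and Col1a2 was at 149.9 CPM against 128 CPM.

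Among adhesion genes, 12 of 19 entered and 2 were called higher, Itgb1 at 236 CPM against 91.8 CPM (log2 ratio 1.27) and Ncam1 at 153 CPM against 61.9 CPM (1.18). Ncam1 was not called under 4 of 18 alternative settings, the lowest log2 ratio being 0.80. Of 40 vasoactive genes, 16 entered and only Rgs5 was called. The nitric oxide receptor subunits Gucy1a3 and Gucy1b3 had 12 and 16 UMIs (19.8 and 26.4 CPM, against 2.14 and 1.80 CPM), the calcium channel gene Cacna1c and the potassium channel gene Kcnma1 had none, and the endothelin receptor gene Ednra was at 11.5 CPM against 16.6 CPM. Unc5b, a netrin receptor gene, was the 1 of 23 vessel growth and guidance genes called (51.1 CPM against 13.7 CPM, log2 ratio 1.37). It was not called under 5 of 18 alternative settings, among them without library 1. Angpt2, a Tie2 ligand, had 21 UMIs in 13 cells (34.6 CPM against 1.62 CPM) and was not called. None of 14 WNT genes, 4 PDGF genes or 9 YAP target genes that entered was called in either direction. With 1.92% of all genes called higher and 0.261% lower, lists this short can hold none.

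Of 32 transcription factor genes listed for smooth muscle and its mesoderm, 24 entered, 5 were called higher and none lower, with a median log2 ratio of 0.62. Mef2c, a muscle and vascular factor, was at 110 CPM against 17.5 CPM (log2 ratio 2.13). Hand1, a factor of lateral plate and heart mesoderm, was at 133, 63.9, 152 and 92.7 CPM in libraries 1 to 4, against 23.3 to 30.8 CPM (1.64), from 16 of the 73 cells, and was not called (0.81) with a contractile threshold of at least 20. Zeb2 was at 152 CPM against 44.5 CPM (1.57) and Ebf1 at 189 CPM against 83.3 CPM (1.10). Ebf1 was not called under 5 of 18 alternative settings, among them without library 2. Heyl, given above, was the other. Srf itself was at 23.1 CPM against 14.1 CPM and Gata6 at 31.3 CPM against 13.6 CPM, neither called. Tbx20 had 21 UMIs in 14 cells (34.6 CPM against 0.695 CPM) and Runx1, the master factor of blood emergence, 18 UMIs in 12 cells (29.7 CPM, 17.6 to 46.9, against 0.985 CPM); neither reached 50 CPM.

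The genes called lower included factors of the somite and of retinoid handling. Meox1, a somite and sclerotome factor, was at 22.2, 69.7, 41.4 and 7.72 CPM in smooth muscle cells of libraries 1 to 4, against 181 to 208 CPM in contractile-low collagen cells (log2 ratio -2.22). The retinoic acid binding proteins Crabp1 and Crabp2 were at 201 CPM against 575 CPM (-1.47) and 69.2 CPM against 299 CPM (-1.97); they were the 2 genes called among 14 of the hedgehog and retinoid list. Arg1 was at 19.8 CPM against 82.3 CPM (-1.63), Fam212a at 13.2 CPM against 68.3 CPM (-1.76) and the glutathione transferase gene Gsta4 at 36.2 CPM against 116 CPM (-1.44). Pf4, a platelet chemokine gene, had no UMI against 56.2 CPM, but 961 of the 970 UMIs in contractile-low collagen cells came from 2 of 2019 barcodes, and it was not called without library 2. Over 8 sclerotome markers the summed level was 122 CPM in smooth muscle cells (38.8 to 193 over libraries 1 to 6) and 385 CPM in contractile-low collagen cells (131 to 433).

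Markers of other cell types were summed over whole lists. Macrophage and megakaryocyte markers summed to 0 CPM in the smooth muscle cells. Endothelial markers summed to 75.8 CPM (0 to 136 over libraries 1 to 6), against 80.6 CPM in contractile-low collagen cells and 1405 CPM in all other kept barcodes. Pericyte markers summed to 209 CPM against 69.5 CPM in contractile-low collagen cells, lateral plate and splanchnic markers to 287 CPM against 110 CPM, and visceral smooth muscle markers to 488 CPM against 75.2 CPM. Neural markers summed to 229 CPM against 76.4 CPM, with a range of 0 to 767 CPM over libraries 1 to 6, and 1 cell of library 2 gave 128 of their UMIs. Without that cell and another with genes of another type, both described next, the remaining 71 smooth muscle cells had 17.97 CPM. Coelomic epithelium markers summed to 270 CPM against 51.4 CPM, most of it from the keratin genes Krt8 and Krt18, which were called higher, at 131.8 CPM against 13.0 CPM and 72.5 CPM against 20.4 CPM. Gut epithelium markers, a list that also holds Krt8, summed to 135 CPM against 17.2 CPM, and blood progenitor markers to 52.7 CPM against 12.9 CPM. Cardiac and skeletal muscle markers summed to 1822 and 2038 CPM against 11.5 and 49.2 CPM, and both lists hold Actc1. Within these lists some genes had no UMI, among them Foxa2, Ptprc and Nkx2-5, and others were present, such as Krt19, Runx1 and Myl4. Those 3 had 30, 18 and 23 UMIs. Upk3b had none because the rule requires it. The part of these markers in the comparisons was not tested.

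A pair of cells carried genes of another type, set by a cut of 10 or more UMIs of the neural markers or of Mylpf, Tnnt2, Tnnc1 and Myl4 together. Nefm and Nefl were no part of that cut. Unthinned, they were found in 6 and 8 of the 73 smooth muscle cells and in 9.76% and 8.27% of contractile-low collagen cells. A cell of library 1 with 18502 UMIs held 36 Mylpf, 12 Tnnt2 and 60 Acta1 UMIs, and a cell of library 2 with 32133 UMIs, the deepest of all 73, held 77 Stmn2, 85 Nefm and 64 Nefl UMIs, genes of neurons. Both were among the 5 smooth muscle cells (6.85%) in the top 5% of doublet scores, a class that held 474 of 9383 kept barcodes. Without these 2 cells, 178 genes were called higher and 28 lower against contractile-low collagen cells, where 154 and 21 were called with them. Also, 1 smooth muscle cell had a barcode sequence that occurs in another library.

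None of 20 S phase and 20 G2/M genes was called. With 1.92% of all genes called higher and 0.261% lower, lists of this size can hold none, so this count says little. The S phase and G2/M medians were -0.33 and -0.38 on the log2 scale. By library the G2/M median was -1.11, -0.75, -0.07 and 0.28 in libraries 1 to 4, which do not share a direction, and the S phase median ran from -0.87 to -0.01. Mki67 was at 140 CPM against 184 CPM and Top2a at 297 CPM against 391 CPM in contractile-low collagen cells. Of 14 immediate early and stress genes that entered, 3 were called higher, Atf3 at 110 CPM against 11.6 CPM (log2 ratio 2.48), Btg2 at 130 CPM against 40.2 CPM (1.48) and Fos at 245 CPM against 103 CPM (1.18), while Jun was at 420 CPM against 321 CPM and was not called. Their part in the other differences was not tested. None of 21 Hox genes was called (median log2 ratio -0.23), a count that again says little beside the shares over all genes.

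The genes outside the rule were then read along the contractile level itself, over 2144 collagen cells in 6 ranges of Acta2, Tagln and Cnn1 UMIs per 10000 UMIs. The ranges, from under 2.5 to 40 and over, held 1980, 47, 41, 17, 21 and 38 barcodes, of which 0, 0, 4, 10, 21 and 38 were smooth muscle cells. A range is a stretch of a continuous measure, not a cell type. Myl9 stood at 48.8, 263, 295, 382, 706 and 2442 CPM from the lowest range to the highest, and Tpm1 at 323, 1060, 1058, 1315, 1962 and 3882 CPM. Both were already raised in the 2.5 to 5 range, where no cell met the contractile threshold. Actc1 stood at 3.91, 9.30, 90.9, 255, 706 and 3191 CPM, and Actg2 stood at 449 CPM in the highest range and at 26.2 CPM in the one below.

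Matrix and signal genes differed in their course along the same ranges. Fn1 stood at 87.0, 273, 253, 356, 438 and 729 CPM, highest in the top range like Myl9 and Tpm1. Sparc stood at 285, 892, 1175, 1146, 1177 and 1913 CPM and Cxcl12 at 127, 245, 295, 365, 373 and 318 CPM. Both were already higher in the second range than in the lowest, and Sparc was highest in the top range. Bmp4 was highest in the top range, at 242 CPM, with 42.1 to 133 CPM in the others. Meox1 stood at 191 CPM in the lowest range and 93.0 CPM in the next, then at 48.7, 42.4, 32.7 and 34.5 CPM. Crabp1 stood at 575 CPM in the lowest range and 128 CPM in the top one. The range of 10 to 20 held only 17 barcodes, and Rgs5, with 37.2 and 39.0 CPM in the ranges before it, was at 8.49 CPM there and at 105 and 93.2 CPM above it.

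**Figure D3:**
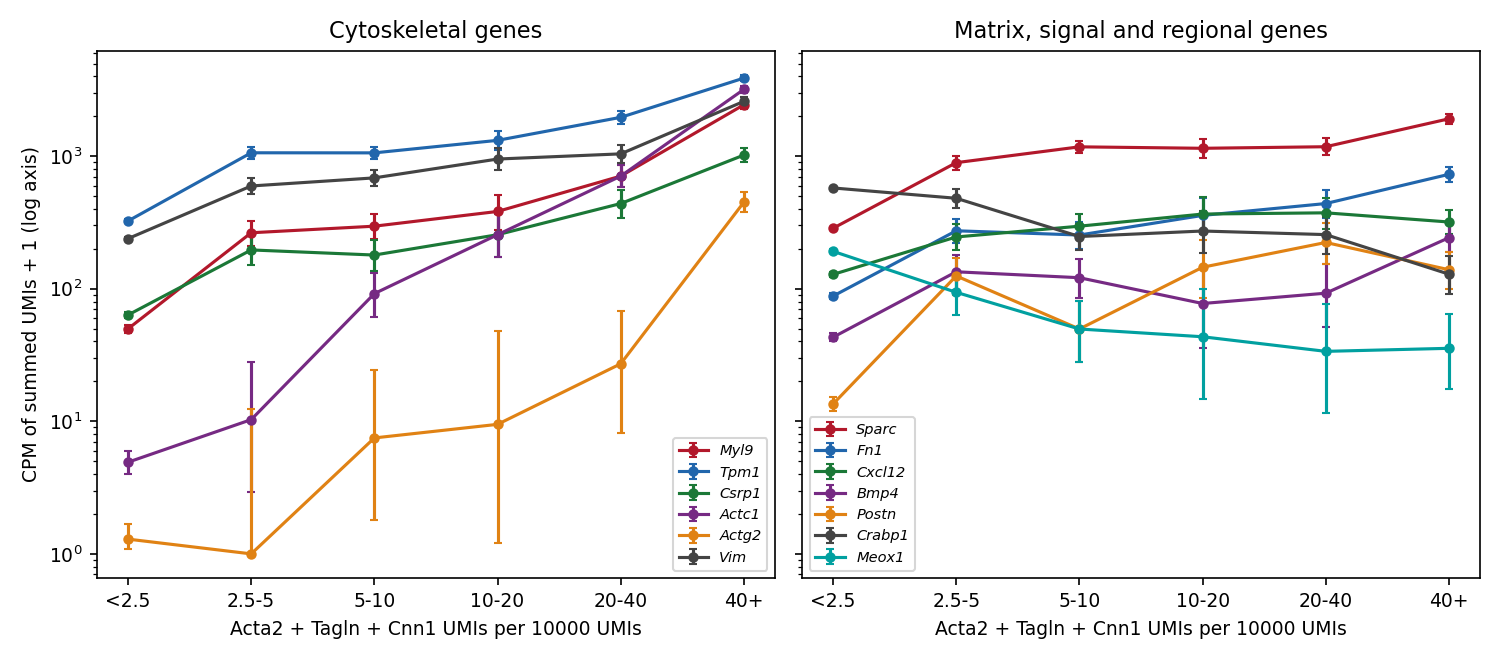
CPM of summed UMIs plus 1 (log axis) over 6 ranges of Acta2, Tagln and Cnn1 UMIs per 10000 UMIs in 2144 collagen cells, with exact 95% Poisson intervals as bars; cytoskeletal genes are on the left and matrix, signal and regional genes on the right. Actc1 goes up over the whole scale to 3191 CPM, Cxcl12 levels off between 295 and 373 CPM, and Meox1 goes down to 34.5 CPM.

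The smooth muscle cells varied among themselves. Clustered on their own without the genes of the rule, they fell into 3 subclusters of 26, 24 and 23 cells at a resolution of 1, into 2 at 0.5 and into 9 at 2, so the number is a choice. Their leading genes define them and are no test. The subclusters keep numbers here.

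Subcluster 3 held the most contractile cells, with a median of 111 contractile UMIs, against 16.5 in subcluster 1 and 20 in subcluster 2. The rule genes were left out of the clustering but other contractile genes were not, so this order is no independent result. The leading genes of subcluster 3 were Actg2, Col5a3, Hbegf, Rasgrp2 and Lmod1, with the contractile genes Actc1, Myh11 and Mylk close behind. Acta2 was at 11199 CPM in subcluster 3, 1879 CPM in subcluster 1 and 2431 CPM in subcluster 2. Myl9 was at 2995, 607 and 764 CPM, Actc1 at 4214, 401 and 845 CPM and Rgs5 at 120, 39.1 and 71.2 CPM in the same order. Hspb1 was at 422 CPM in subcluster 3, with 39.1 and 80.7 CPM in subclusters 1 and 2. Ndufa4l2 was at 156 CPM, Heyl at 99.0 CPM, Angpt2 at 88.6 CPM and Runx1 at 62.5 CPM in subcluster 3, against 9.78 CPM of Ndufa4l2 and no UMI of the other 3 in subcluster 1. Hoxc10, a posterior Hox gene, was at 5.21 CPM in subcluster 3, against 137 and 171 CPM in the others. Libraries 1 to 6 gave it 2, 5, 3, 4, 6 and 3 cells, so 9 of the 12 smooth muscle cells of libraries 5 and 6 fell here. None of its cells had a top doublet score, against 3 in subcluster 1 and 2 in subcluster 2.

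Subcluster 1 was led by Hand1, Wnt2, Pitx1, Phlda2 and Lix1, of which Phlda2 came from 1 cell. Hand1 was at 289 CPM there, 10.4 CPM in subcluster 3 and absent from subcluster 2. In all, 5 of 9 lateral plate and splanchnic markers were raised in it, namely Hand1, Hand2, Foxf1, Gata6 and Isl1, as were the keratin genes Krt8 and Krt18. Krt8 was at 303 CPM, against 38.0 CPM in subcluster 2 and 52.1 CPM in subcluster 3. Ptn, the growth factor pleiotrophin, was at 929.5 CPM, against 266 and 72.9 CPM. Library 1 gave 11 of its 26 cells.

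Subcluster 2 was led by the neuronal genes Nefm, Nefl, Stmn2 and Rtn1 and by Mylpf, and it held both cells with genes of another type. Of 8 sclerotome markers, 3 were raised in it, namely Pax9, Meox1 and Sox9. Meox1 was at 66.5 CPM from 7 of its 24 cells, against 24.5 CPM in subcluster 1 and 5.21 CPM in subcluster 3. All 77 Stmn2 UMIs and all 36 Mylpf UMIs of the subcluster came from 1 cell each, and its Nefm UMIs came from 3 cells. It had the highest Cxcl12 level, 408 CPM, with 142 CPM in subcluster 1 and 359 CPM in subcluster 3, and held no cell of libraries 5 and 6.

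**Figure D4:**
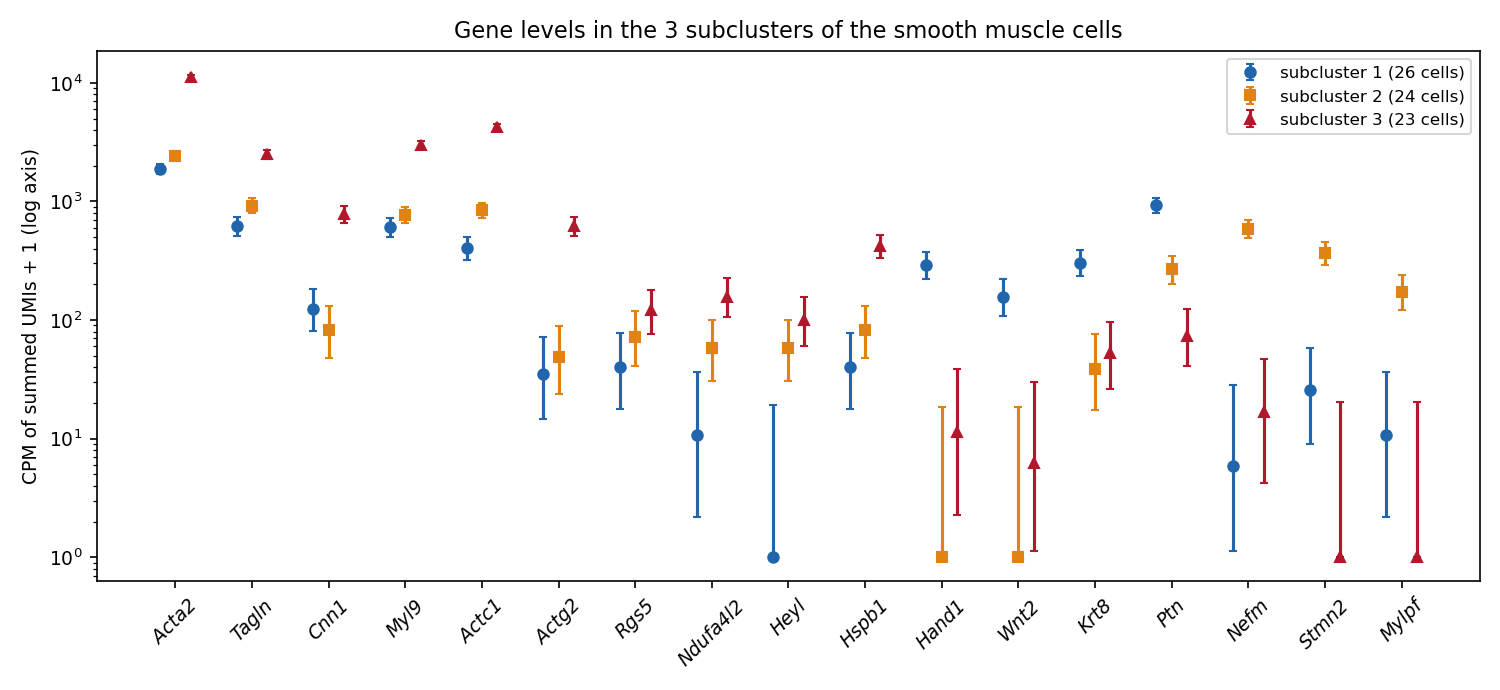
CPM of summed UMIs plus 1 (log axis) of 17 genes in the 3 subclusters of the 73 smooth muscle cells, with exact 95% Poisson intervals as bars. Contractile genes peak in subcluster 3 (Actc1 4214 CPM), Hand1, Wnt2, Krt8 and Ptn in subcluster 1, and Nefm, Stmn2 and Mylpf in subcluster 2, where single cells carry most of their UMIs.

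The 14 contractile cells with Tbx18 or Ntrk2 UMIs were close in contractile levels. Both sets had passed the same contractile threshold, so this closeness follows in part from the selection and is no independent result. Of 24 contractile genes that entered, only Actg2 was called (222 CPM in smooth muscle cells, 80.8 CPM in the Tbx18 or Ntrk2 cells), and the median log2 ratio was -0.05. Myl9 was at 1417 CPM in smooth muscle cells and 1301 CPM in the 14 cells, Actc1 at 1761 and 1668 CPM, and Rgs5 at 75.8 and 80.8 CPM. Over all genes, 107 of 8249 (1.30%) were called higher and 89 (1.08%) lower, but no library held 10 cells of both sets, so direction was not checked within libraries. With TMM scaling the split was 158 higher and 65 lower. Leaving out library 1 gave 190 higher and 206 lower, leaving out library 2 gave 169 and 230, and without library 4 there were 159 lower. Genes with the highest log2 ratios included Hand1, with 61 UMIs (100.5 CPM) against none. They also included Wnt2 and Pitx1, each with 33 UMIs (54.4 CPM) against none. No count among the 14 cells allows up to 22.0 CPM, a limit that counts UMIs and not cells. The UMIs of Hand1, Wnt2 and Pitx1 lay in 16, 10 and 11 of the 73 smooth muscle cells, so their absence from 14 cells shows little. Genes with the lowest log2 ratios were carried by few counts, such as Pola2 with 4 UMIs in smooth muscle cells against 9. Cited2 had 15 UMIs against 13, at 24.7 and 95.5 CPM.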

How the data were processed

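Single-cell RNA was measured in 3 sorted populations, with 1 sample each. The authors deposited unnormalised UMI counts, in 1 pooled matrix of 27998 genes by 9492 barcodes (78653331 UMIs). Cell Ranger and the mm10 build are named in the submitters' processing notes, with no version. The other deposited files hold only names of genes and barcodes.

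The selection rule was applied to the 9383 barcodes with 1000 UMIs or more, 500 genes or more and no more than 10% mitochondrial UMIs. The members and all gene lists were chosen with earlier results of these data known. Doublets were scored per library against simulated ones and kept in the main values. UMIs were summed per set, scaled to CPM and compared as log2 ratios with a pseudocount of 10 CPM. List symbols shared by 2 gene IDs were left out. Named genes were the rule genes and markers, the 15 highest and 8 lowest called genes, the 8 highest and 8 lowest against Tbx18 or Ntrk2 cells, the most abundant and most changed members of each list, and leading subcluster genes; Bgn, Cacna1c, Col4a1, Dll4, Ednra, Eln, Kcnj8, Kcnma1, Kitl, Loxl1, Mki67, Mylk, Myocd, Pdgfb, S1pr1, S1pr2, Smtn, Srf, Synpo2 and Tgfb2, all of the lists, were added after their values were seen. Subclusters used the 1500 most variable genes without rule, mitochondrial, ribosomal, sex-linked and cell cycle genes, 15 principal components and the Leiden algorithm (Python 3.11.15, numpy 2.4.6, scipy 1.17.1, pandas 2.3.3, scikit-learn 1.9.0, scanpy 1.11.5, leidenalg 0.10.2, igraph 0.11.9). Promoter sequence came from a RefSeq table of mm10 (GRCm38.p6). Alternatives changed the scaling, pseudocount, filters, weights, thresholds, doublets and libraries.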

Additional observations from a re-analysis of the deposited data

How the results depend on the processing

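No paired analysis was possible because the matrix is 1 pooled sample and no statistical test was run. With a contractile threshold of at least 20 UMIs there were 44 smooth muscle cells, 236 genes higher and 52 lower against contractile-low collagen cells, 69 lower against all other barcodes, and 167 higher and 156 lower against Tbx18 or Ntrk2 cells. Direction was then checked in 2 libraries, not 4, against contractile-low collagen cells. The count lower against contractile-low collagen cells was 35 with equal weight per library, 35 with top doublet scores removed, 12 with at least 5 contractile UMIs and 45 without the collagen threshold. The count lower against Tbx18 or Ntrk2 cells was 177 with a pseudocount of 1 CPM and 168 with the mean of CPM per barcode. Leaving out each of libraries 1 to 4 gave 53 to 63 cells. It gave 163 to 184 genes higher and 26 to 38 lower against contractile-low collagen cells, 173 to 187 higher and 46 to 61 lower against all other barcodes, and 113 to 190 higher and 86 to 230 lower against Tbx18 or Ntrk2 cells. Of 54 named called genes, 41 were called under all 18 settings and 13 were not called under some (Bmp2, Btg2, Ebf1, Fstl1, Hand1, Heyl, Igf1, Isl1, Krt18, Ncam1, Ndufa4l2, Pf4 and Unc5b). Isl1 reversed, to -0.13, without the collagen threshold. The medians of the growth factor, stem cell support, vessel guidance and WNT lists changed sign with equal weight per library. TMM scaling put the median over all genes at 0.12 against Tbx18 or Ntrk2 cells, where it was 0.0076, and equal weight could not be computed there. The settings that leave out 2 cells or use libraries 1 to 4 only were chosen after seeing the data. The causes were not tested. In 73 cells, 3 UMIs correspond to 4.94 CPM, which limits what can be seen of rarer transcripts.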

Other observations

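Ligands and receptors known to link mural cells and endothelium were also read side by side in the smooth muscle cells and in 1523 endothelial barcodes (at least 2 Cdh5 UMIs and under 2 collagen UMIs), 2 sets fixed by different marker genes, so these are levels and not a comparison. Pdgfrb was at 72.5 CPM in smooth muscle cells and 0.0695 CPM in endothelial barcodes, and its ligand gene Pdgfb had no UMI in smooth muscle cells and was at 25.1 CPM in endothelial barcodes. Angpt2 was at 34.6 CPM (21.4 to 52.9) in smooth muscle cells and 3.06 CPM (2.22 to 4.10) in endothelial barcodes, while its receptor gene Tek had no UMI and 75.7 CPM. Notch3 was at 34.6 and 4.17 CPM, and the ligand gene Dll4 had no UMI and 9.38 CPM. The sphingosine 1-phosphate receptor genes differed in kind, with S1pr2 at 39.5 and 5.42 CPM and S1pr1 at 1.65 and 43.6 CPM. Kitl was at 47.8 CPM (32.0 to 68.6) in smooth muscle cells and 63.1 CPM (59.0 to 67.3) in endothelial barcodes. Igf2r, which clears IGF2, was at 185 and 58.9 CPM. These genes were picked from the fixed lists after their values had been seen.

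Runx1 was found in 12 of 73 smooth muscle cells (16.4%) and, after thinning to 3000 UMIs, in 6.94% (2.29 to 15.5%). After thinning, it was found in 0.303% (0.111 to 0.659%) of contractile-low collagen cells, 4.48% of endothelial barcodes and 20.8% of macrophage barcodes. Before thinning, the shares were 0.842%, 7.88% and 60.4%, at median depths of 7031 UMIs in smooth muscle cells and 8017, 8775 and 10894.5 UMIs in the other 3 sets. Macrophage and megakaryocyte markers each summed to 0 CPM in the smooth muscle cells. The part of free RNA in the Runx1 shares was not tested.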
